A study of Mus musculus with 50 samples.

Results

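Of the 45792 genes in the count table, the 10 described here encode apolipoproteins of the liver or the protein that loads apolipoprotein B with lipid. They were taken from the table by symbol (Apoa1, Apoa2, Apoa4, Apoa5, Apob, Apoc1, Apoc2, Apoc3, Apoe and Mttp). The list was drawn up with earlier results of these data known. RNA was sequenced from livers and liver tumours of C3H/He mice, a strain prone to liver tumours, aged 48 weeks. ALIOS fed mice received the American lifestyle diet, rich in trans-fat with fructose in the drinking water, and control mice a diet with little trans-fat and without the sugar. Without DEN there were 12 control livers, 11 ALIOS livers, 1 control tumour and 12 ALIOS tumours, all non-tumour livers or spontaneous tumours. Diethylnitrosamine (DEN), a liver carcinogen, had been given to the mice of a further 5 control and 8 ALIOS tumours, and no liver of a DEN mouse was sequenced, so tumour and DEN cannot be told apart where DEN tumours are set against livers. The sources used here do not give the dose or time of DEN, and the labels tie no tumour to a liver of the same mouse, so a mouse may have given more than 1 library.

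The liver exports fat as very low density lipoprotein (VLDL). Apolipoprotein B (Apob) forms its backbone, microsomal triglyceride transfer protein (Mttp) transfers lipid onto it in the endoplasmic reticulum, and smaller apolipoproteins exchange between particles. Apoa1 and Apoa2 are the main proteins of high density lipoprotein (HDL), whereas Apoc2 and Apoa5 favour the hydrolysis of triglyceride by lipoprotein lipase, Apoc1 and Apoc3 oppose hydrolysis or uptake, and Apoe is a ligand of the receptors that clear remnants. Apoa4 is made chiefly in intestine in most mammals, and in mouse liver it is known to rise with fat load.

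Gene clusters on chromosomes 9 and 7 hold 7 of the 10 genes. On mouse assembly GRCm38 (mm10), Apoa1 (chr9:46228580-46230466, plus strand), Apoc3 (chr9:46232933-46235636, minus), Apoa4 (chr9:46240696-46243459, plus) and Apoa5 (chr9:46268633-46271919, plus) are neighbours. Apoc2 (chr7:19671579-19677941), Apoc1 (chr7:19689481-19692660) and Apoe (chr7:19696109-19699188) lie on the minus strand of chromosome 7. Apob (chr12:7977648-8016835, plus), Mttp (chr3:138089854-138144968, minus) and Apoa2 (chr1:171225054-171226379, plus) lie elsewhere. Apoa4 shares 632 exon bases with the antisense gene Gm10680, and Mttp shares 457 with Trmt10a on the opposite strand. The sources used here do not say whether HTSeq counted by strand, and without strand the reads of such a pair cannot be told apart. Gm10680 held 16439 counts over all 50 libraries, fewer than Apoa4 held in any 1 of the 49 libraries used (22399 or more), and Trmt10a held 11767, against 4860 or more of Mttp in each library. If strand was ignored, these counts do not show how many reads over the shared bases went uncounted. A read-through gene annotated later than the counting, Gm44805, covers 646 exon bases of Apoc2 on the same strand.

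In the test of diet in livers, described below, Apoa4 and Apoc2 were called, and Apoa1 and Apoe of the same clusters were not. Apoc2 was not tested against Apoe. The bases just upstream of these 4 genes are shown. Each runs 5′ to 3′ on the gene's own strand of the C57BL/6J reference (RefSeq promoter table, GRCm38.p6) and stops before the first annotated exon base, and capitals mark a match to a searched motif.
Apoa4 (chr9:46240594-46240695, plus): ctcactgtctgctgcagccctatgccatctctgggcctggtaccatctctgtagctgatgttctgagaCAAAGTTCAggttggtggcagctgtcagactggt
Apoa1 (chr9:46228380-46228579, plus): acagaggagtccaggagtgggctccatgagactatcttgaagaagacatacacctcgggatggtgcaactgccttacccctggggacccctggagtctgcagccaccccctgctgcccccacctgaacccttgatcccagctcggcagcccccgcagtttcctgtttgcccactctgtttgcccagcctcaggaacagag
Apoc2 (chr7:19677942-19678082, minus): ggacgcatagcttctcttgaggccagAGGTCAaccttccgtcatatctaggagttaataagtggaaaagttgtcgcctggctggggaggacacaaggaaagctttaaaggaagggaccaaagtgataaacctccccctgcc
Apoe (chr7:19699189-19699438, minus): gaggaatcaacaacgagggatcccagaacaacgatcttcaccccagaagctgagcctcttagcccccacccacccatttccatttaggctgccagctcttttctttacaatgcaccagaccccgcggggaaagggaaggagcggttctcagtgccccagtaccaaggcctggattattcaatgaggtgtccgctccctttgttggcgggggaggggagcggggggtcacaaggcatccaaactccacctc
The Apoc2 stretch is bounded by the end of Apoc4, and RefSeq starts Apoa4 and Apoa1 downstream of the annotation used here. A set of 5 motifs was searched on both strands of 300-base windows (250 before and 50 after a start), and 8 of the 10 genes had a window. AGGTCA, a nuclear receptor half-site, was found in 2 of the 8 genes (Apoa2 and Apoc2) and in 16.3% of all 32851 windows. CAAAGTNCA, of the type bound by HNF4, was found for Apoa4 alone and in 1.41% of all windows. Only exact matches were counted, so a site that differs by a base, in Apoa1 or elsewhere, would not be found. TATAAA was present in 4 genes (Apoa2, Apoa5, Apob and Apoe; 13.6% of windows), CACGTG in Apoa5 (7.15%) and TGACGT in Mttp (7.51%). None of these matches lies in the printed stretches, so the TATAAA of Apoe is outside the bases shown.

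The libraries held 23798251 to 45751398 counts each. The 15 hepatocyte markers, Alb among them, summed to 91398 to 272234 CPM (counts divided by the library total and multiplied by 1000000) in the 49 libraries used. Alb alone held 44338 to 210727 CPM there, so it carried much of this sum. The ALIOS tumour T1 was left out: Alb stood at 37.9 CPM there against 44338 or more elsewhere, 10 kidney markers summed to 45267 CPM, and Apoa1 stood at 5.1 CPM. Kidney markers summed to at most 22.9 CPM in the other libraries. Among 9 intestine markers Fabp2, which liver also expresses, carried most of the sum, and the other 8 summed to at most 1.17 CPM in livers and to between 0.378 and 52.9 CPM in tumours. The 10 genes took between 3.48% and 4.82% of all counts in control livers (median 4.49%), 4.67% to 5.42% in ALIOS livers (5.07%), 4.69% to 7.0% in ALIOS tumours (6.28%), 5.87% to 7.39% in control DEN tumours (6.04%) and 4.68% to 8.96% in ALIOS DEN tumours (6.07%). The ranges of control and ALIOS livers overlapped narrowly, and the median of each tumour group lay above both. In whole tissue, fewer cells of a type and less RNA per cell cannot be told apart.

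Per length, Apoa2 was the most abundant of the 10 transcripts in control livers and Mttp the least. In CPM per kilobase of exon, means over the 12 control livers were 14182 ± 2668 (SD) for Apoa2, 9653 ± 1478 for Apoa1, 5626 ± 1113 for Apoc1 and 5593 ± 841 for Apoe. Apoc1 and Apoe were apart by less than their SDs. Apoc3 followed at 1900 ± 375, Apoc2 at 931 ± 266, Apoa4 at 750 ± 220, Apoa5 at 449 ± 101, Apob at 431 ± 71.8 and Mttp at 51.3 ± 12.1. Neither Apoc2 and Apoa4 nor Apoa5 and Apob, each neighbours in this order, were apart by more than their SDs. In the ALIOS tumours (n = 12) Apoa1 led at 15055 ± 5399, ahead of Apoa2 at 9649 ± 3562, and Apoa4 ranked 3 at 4789 ± 1684. Apoa4 and Apoe (4612 ± 716) were apart by less than their SDs. With the length of the principal transcript in place of all exons, chosen after the data were seen, Apoa4 ranked 5 in these tumours and Apoe passed Apoc1 in control livers. The plot of levels per length shows Apoa4 higher in the order and Apoa2 lower in ALIOS tumours than in control livers.

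**Figure D1:**
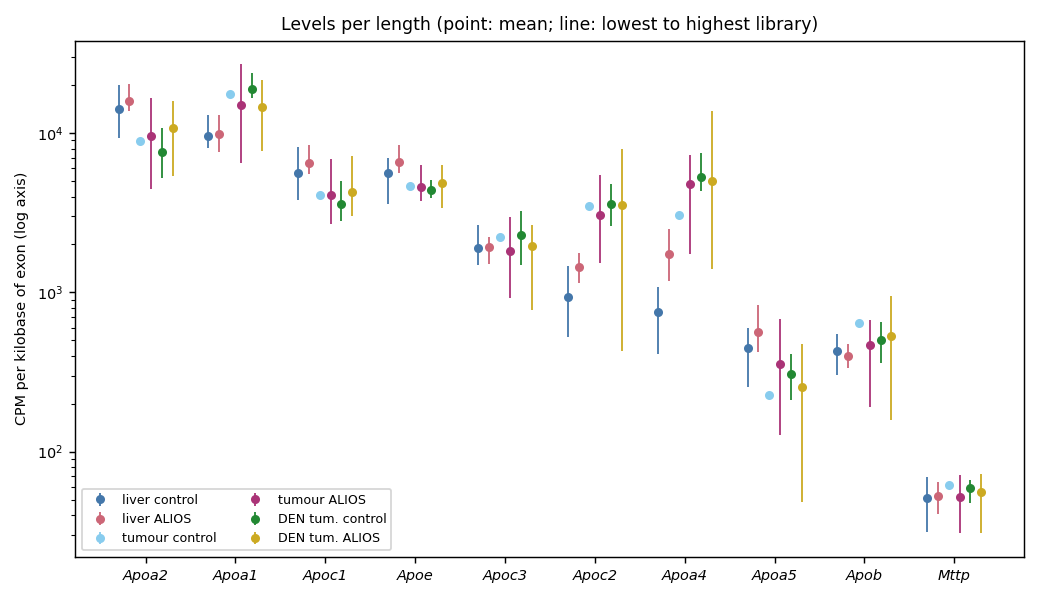
Level of each gene in CPM per kilobase of exon (log axis) in the 6 groups; points are means, lines run from the lowest to the highest library, and the control tumour is 1 library. Apoa4 goes from 750 in control livers to 4789 in ALIOS tumours, whereas Mttp stays near 51.3.

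Apoa4 and Apoc2 rose in the livers of ALIOS fed mice and the other 8 genes did not pass the test. Called genes made up 11.2% of the 13723 genes tested, against 2 of the 10 here, and the median log2 fold change was 0.16 over the 10 and -0.02 over all genes. Values given per library are CPM scaled by TMM (a trimmed mean of ratios between libraries), and a call is a Benjamini-Hochberg adjusted p under 0.05 over all genes in edgeR's quasi-likelihood test.

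Apoa4 ran from 750 to 1957 CPM in control livers (median 1394, n = 12) and from 2131 to 4559 in ALIOS livers (3103, n = 11). The groups did not overlap, as was so for 0.0734% of 17707 genes. The log2 fold change was 1.20 ± 0.16 (SE; 2.29-fold, adjusted p = 0.00013), rank 8 by p of all genes tested. Apoc2, the activator of lipoprotein lipase, ran from 429 to 1199 CPM in control livers (median 787) and from 931 to 1439 in ALIOS livers (1203). All 11 ALIOS livers lay above the control median and 6 lay above every control liver. Its log2 fold change was 0.62 ± 0.13 (1.54-fold, adjusted p = 0.00688). That call was lost with all 6 groups in 1 fit (0.64, adjusted p = 0.163).

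Of the HDL proteins, Apoa1 had medians of 11636 CPM in control and 11865 in ALIOS livers (log2 fold change 0.02 ± 0.11, adjusted p = 0.924), and Apoa2 of 7491 and 8478 (0.14 ± 0.10, adjusted p = 0.39). Apob, with medians of 5893 and 5544 CPM, gave -0.13 ± 0.09 (adjusted p = 0.356), although 10 of 11 ALIOS livers lay below the control median. For Mttp the medians were 332 and 321 CPM (0.01 ± 0.12, adjusted p = 0.963). Ranges of the groups overlapped for each of these genes. Apoa5 (median 1194 against 1369 CPM; 0.31 ± 0.13, adjusted p = 0.102), Apoe (12108 against 13789; 0.22 ± 0.10, adjusted p = 0.137) and Apoc1 (4145 against 4696; 0.19 ± 0.10, adjusted p = 0.224) lay above the control median in 10 of 11 ALIOS livers without passing the test. Apoe passed it in DESeq2 (adjusted p = 0.044). Apoc3, with medians of 1889 and 1934 CPM, gave 0.00 ± 0.10 (adjusted p = 0.984).

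Macrophage markers moved with diet: 10 of 13 rose (median log2 fold change 0.81), their summed level running from 246 to 551 CPM in control and from 358 to 1335 CPM in ALIOS livers. None of them was at 0 in either group. Macrophages also make Apoe, and the part of these cells in the Apoe values was not tested. Of 15 hepatocyte markers 0 were called by edgeR, 0 had an unadjusted p under 0.05 and DESeq2 called 0 (median -0.09). Of 8 stellate cell and fibroblast markers 3 rose (median 0.56), as did 2 of 5 cholangiocyte markers tested (0.70) and 3 of 5 lymphocyte markers tested (1.56), and 0 of 6 endothelial markers passed in edgeR or DESeq2 (median 0.13; 3 had an unadjusted p under 0.05).

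Apoa4 varied most of the 10 genes over the 23 livers (SD of log2 CPM 0.74; the others 0.20 to 0.48). The 5 of 13711 genes whose log2 CPM followed it most closely over these livers were Tmem86a (Pearson r = 0.91; 0.72 within control and 0.54 within ALIOS livers), Slc22a29 (0.88; 0.68 and 0.65), Arhgap10 (0.88; 0.61 and 0.41), Mogat1 (0.86; 0.58 and 0.73) and Ucp2 (0.86; 0.42 and 0.74). Mogat1 makes diacylglycerol and Ucp2 is a mitochondrial carrier. The 23 points share the difference between diets, which the values within each diet do not. Among the 10 genes Apoc2 was most like Apoa4 over the 23 livers (0.86; 0.69 and 0.70), though within control livers Mttp (0.82) and Apoa5 (0.77) followed it more closely, and its cluster neighbour Apoa1 was not alike (0.05; 0.25 and -0.36).

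**Figure D2:**
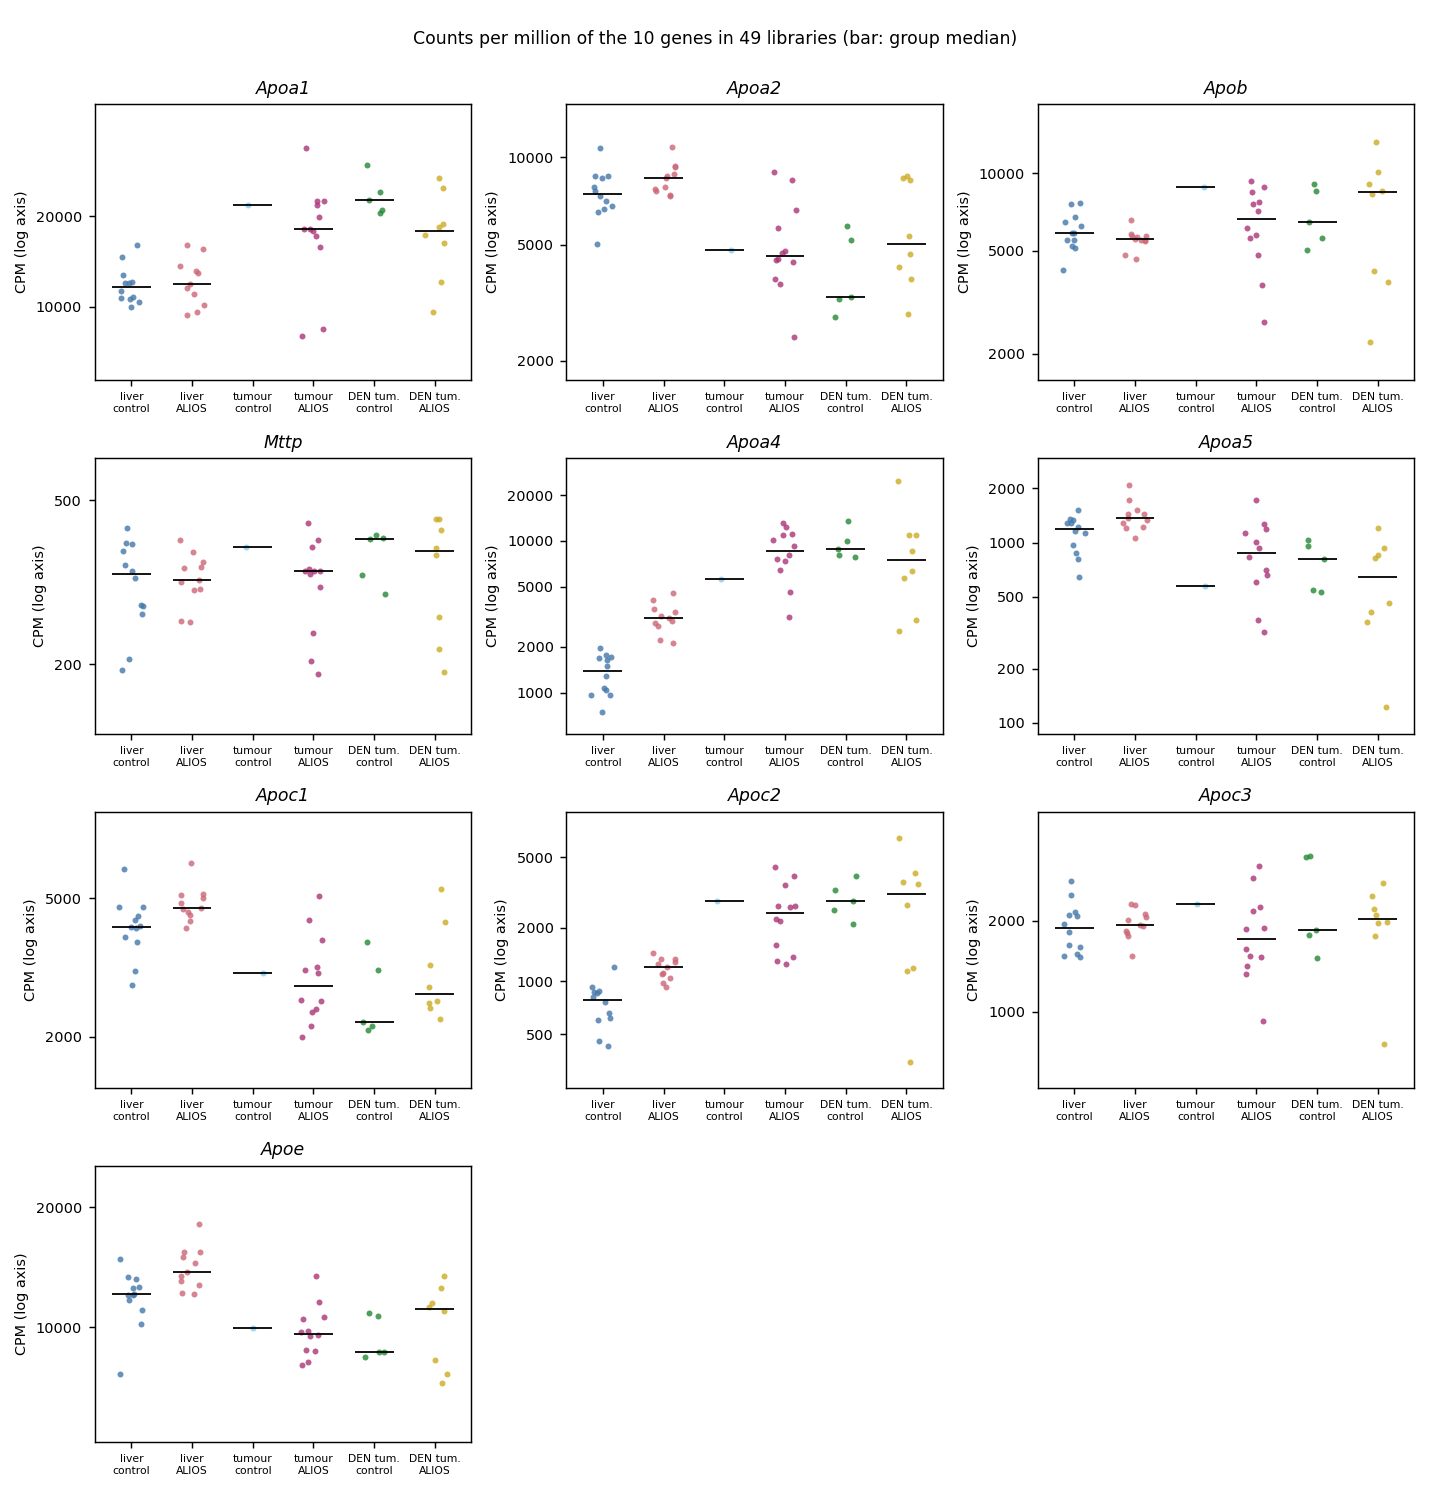
CPM of each of the 10 genes (log axes) in 49 libraries; each point is 1 library and each bar a group median. Apoa4 is at 750 to 1957 in control livers and at 2131 to 4559 in ALIOS livers, with no overlap.

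In spontaneous tumours set against ALIOS livers, Apoa4, Apoc2 and Apoa1 rose, Apoa2, Apoa5, Apoc1 and Apoe fell, and Apob, Mttp and Apoc3 did not pass the test. These 7 of 10 stand beside 52.8% of all 14183 genes tested that were called. The median log2 fold change was -0.04 over the 10 genes and 0.01 over all. The comparison shares the 11 ALIOS livers with the diet comparison.

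Apoa4 ran from 3173 to 13161 CPM in the 12 tumours (median 8628), and 11 of the 12 lay above every ALIOS liver. Its log2 fold change was 1.47 ± 0.20 (2.77-fold, adjusted p = 2.99e-06). Apoc2 ran from 1248 to 4436 CPM (median 2436), with 9 tumours above every liver and a log2 fold change of 1.08 ± 0.19 (2.11-fold, adjusted p = 7.23e-05). Apoa1 spread from 8018 to 33501 CPM (median 18081) against 9393 to 16041 in livers. Every liver was exceeded by 9 tumours, and T2 and T6 lay below every one. In the paper's clustering, T6 was the only tumour placed in a sub-cluster of non-tumour livers. The log2 fold change of Apoa1 was 0.61 ± 0.19 (1.52-fold, adjusted p = 0.00905).

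Apoa2, the other main HDL protein, ran from 2408 to 8929 CPM in tumours (median 4582) and from 7351 to 10861 in livers (8478). Of the 12 tumours 10 lay below every liver, and Apoa2 fell by 0.71 ± 0.17 on the log2 scale (adjusted p = 0.00118). Apoe fell by 0.52 ± 0.11 (adjusted p = 0.000306): it lay between 8035 and 13454 CPM in tumours (median 9627) and between 12098 and 18134 in livers, and 11 tumours were below every liver. Apoc1 fell by 0.66 ± 0.14 (adjusted p = 0.000452), from a median of 4696 to 2801 CPM, with 10 tumours below every liver. Apoa5 fell by 0.67 ± 0.21 (adjusted p = 0.0115), from 1369 to 879 CPM, with 8 below. In the chromosome 7 cluster Apoc2 rose while Apoc1 and Apoe fell, and in the chromosome 9 cluster Apoa4 and Apoa1 rose while Apoa5 fell.

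Apob spread from 2659 to 9327 CPM in tumours (median 6646) around the 4653 to 6616 of livers, with 6 tumours above every liver and 2 below (0.23 ± 0.16, adjusted p = 0.237). Apob passed the test with the control livers and T7 added and diet as a covariate (0.31, adjusted p = 0.0446). Mttp gave -0.01 ± 0.12 (adjusted p = 0.959) and Apoc3 -0.07 ± 0.15 (adjusted p = 0.712). T2 and T3 had the lowest Apob (3706 and 2659 CPM) and Mttp (190 and 204) of the 12 tumours and the highest Apoa2 (8339 and 8929), Apoa5 (1728 and 1271), Apoc1 (4331 and 5088) and Apoe (11568 and 13454). No call on these 10 genes changed when any 1 of the 23 libraries was left out, and with T1 included only Apoa4 was still called.

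Macrophage markers were lower in these tumours, with 10 of 13 called lower (median -0.86; summed 82.1 to 810 CPM against 358 to 1335 in livers). Of the 15 hepatocyte markers 3 rose, such as Trf (1.17 ± 0.17) and Ahsg (1.06 ± 0.24), and 7 fell, such as Cps1 (-1.33 ± 0.17) and Tat (-1.29 ± 0.27), with a median of -0.31. Their summed level, much of it Alb, was nonetheless higher. It ran from 109280 to 272234 CPM in tumours (median 211248) against 91398 to 149191 in livers (121927). Over all genes 52.8% were called. The part of these shifts in the values of the 10 genes was not tested. Of 2 intestine markers tested Vil1 rose (2.73 ± 0.60) and Fabp2 fell (-0.30 ± 0.12), and the other 7, Cdx1, Cdx2, Sis and Lct among them, were too low to be tested.

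On the ALIOS diet Apoa4, Apoc2 and Apoa1 rose and Apoa5, Apoc1 and Apoe fell in the 8 DEN tumours against the 11 ALIOS livers. In all, 6 of 10 genes were called where 47.5% of 14434 genes were, with medians of 0.11 over the 10 genes and 0.08 over all. Apoa4 ran from 2542 to 25048 CPM (median 7451), with 6 tumours above every liver and a log2 fold change of 1.60 ± 0.33 (3.03-fold, adjusted p = 0.000586). Apoc2 ran from 350 to 6422 CPM (median 3117), 5 tumours above and 1 below every liver, and rose by 1.35 ± 0.35 (adjusted p = 0.00344). Apoa1, from 9582 to 26669 CPM (median 17828), rose by 0.62 ± 0.19 (adjusted p = 0.0133). Apoa1 lost its call with no filter on low counts (0.57, adjusted p = 0.0664).

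The same 3 DEN tumours, T23, T24 and T25, had the lowest levels of Apoa4 (3009, 2542 and 5727 CPM), Apoc2 (1183, 350 and 1139), Apob (4186, 2216 and 3780) and Mttp (218, 192 and 260). All 3 lay below every ALIOS liver in Apob, and the other 5 DEN tumours lay above every one (8352 to 13221 CPM against 4653 to 6616). Over all 8 the log2 fold change of Apob was 0.49 ± 0.25 (adjusted p = 0.117), and without T24 it was 0.62 (adjusted p = 0.0122). T24 also stood apart in macrophage markers (summed 1169 CPM), in stellate cell and fibroblast markers (1537 CPM) and in hepatocyte markers (110930 CPM, the lowest of the 8).

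Apoa5 fell by 1.08 ± 0.30 on the log2 scale (adjusted p = 0.00548), from 122 to 1203 CPM in the 8 tumours (median 643), 7 of them below every liver. Apoc1 fell by 0.55 ± 0.16 (adjusted p = 0.00975), with 6 below every liver. Apoe fell by 0.39 ± 0.15 (adjusted p = 0.0399), a call that was lost without T15, T22, T26 or T27 and with no filter on low counts (adjusted p from 0.0521 to 0.102). Apoa2 missed the threshold (-0.49 ± 0.20, adjusted p = 0.0503) and passed it in DESeq2 (adjusted p = 0.0121), with DESeq2 size factors (0.0392), with all 6 groups in 1 fit (0.0228) and without T16, T23 or T25 (0.0158 to 0.017). Mttp gave 0.15 ± 0.16 (adjusted p = 0.468) and Apoc3 0.08 ± 0.16 (adjusted p = 0.706).

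On the control diet the 5 DEN tumours were set against the 12 control livers, which also enter the diet comparison. Apoa4 stood at 8106, 10013, 8911, 13632 and 7808 CPM in T17 to T21, against 750 to 1957 in the 12 control livers. Apoc2 stood at 2851, 2520, 3287, 3919 and 2114 CPM, against 429 to 1199. Apoa1 stood at 22682, 20511, 23982, 29564 and 20950 CPM, against 9959 to 16064. In all 3 genes every tumour exceeded every liver, where 19.8% of 17707 genes did not overlap. Log2 fold changes were 2.88 ± 0.20 for Apoa4 (7.35-fold, adjusted p = 1.13e-09), 2.0 ± 0.19 for Apoc2 (4.01-fold, adjusted p = 7.47e-08) and 1.03 ± 0.15 for Apoa1 (2.04-fold, adjusted p = 9.58e-06).

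Apoa2 fell by 0.86 ± 0.20 in these tumours (adjusted p = 0.00121), with 3306, 3248, 5823, 5211 and 2822 CPM, 3 of them below every control liver. Apoc1 fell by 0.61 ± 0.18 (adjusted p = 0.00802) and Apoa5 by 0.51 ± 0.20 (adjusted p = 0.0379). The Apoa5 call was lost without T17 (-0.40, adjusted p = 0.121) or T18 (-0.41, adjusted p = 0.114) and with all 6 groups in 1 fit (-0.55, adjusted p = 0.145). Apoe (-0.29 ± 0.15, adjusted p = 0.117), Apoc3 (0.32 ± 0.19, adjusted p = 0.154), Apob (0.26 ± 0.17, adjusted p = 0.206) and Mttp (0.26 ± 0.17, adjusted p = 0.204) did not pass. Apoe passed in DESeq2 (-0.31, adjusted p = 0.022). The called genes were 6 of 10 where 51.7% of 14731 genes were called, with medians of 0.26 and 0.03.

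Markers of cell types were also called in the DEN tumours. Over all genes 51.7% were called on the control diet and 47.5% on ALIOS. Apart from stellate cell and fibroblast markers, most counts lay near or below those shares. On the control diet 5 of 8 stellate cell and fibroblast markers rose and 2 fell (median 1.27; summed 180 to 707 CPM against 106 to 294 in control livers), 4 of 7 lymphocyte markers rose (median 1.34; 2.81 to 8.22 against 0.633 to 4.68 CPM), and of 13 macrophage markers 2 rose and 4 fell (median -0.44; 134 to 398 against 246 to 551 CPM). On the ALIOS diet 3 of 8 stellate cell and fibroblast markers rose and 3 fell (median 0.65), 2 of 13 macrophage markers fell (-0.42) and 0 of 6 lymphocyte markers tested were called by edgeR (0.79; 2 had an unadjusted p under 0.05 and DESeq2 called 1). Hepatocyte markers had 4 higher and 4 lower of 15 on the control diet (median -0.32) and 3 higher and 5 lower on ALIOS (-0.06). Their summed level, much of it Alb, was 194441 to 240649 CPM on the control diet, against 113534 to 154033 in control livers. On ALIOS it was 110930 to 250559 CPM, against 91398 to 149191 in ALIOS livers. Of 3 intestine markers tested on either diet Vil1 and Cdh17 rose and Fabp2 did not pass. The part of these cells in the values of the 10 genes was not tested. The plot of fold changes sets these comparisons side by side.

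**Figure D3:**
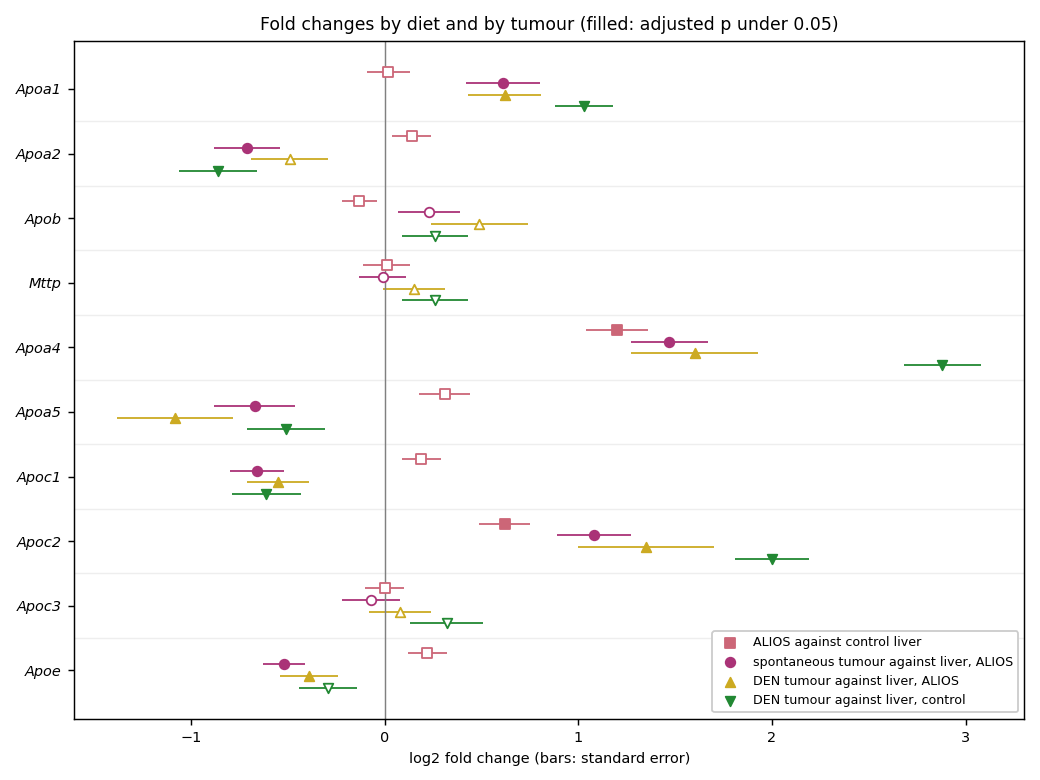
Log2 fold change with its standard error (horizontal bars) for each gene in 4 comparisons; filled symbols passed an adjusted p under 0.05 and open ones did not. Apoa4 and Apoc2 lie right of 0 in all 4, from 0.62 to 2.88; the 3 comparisons on ALIOS livers share those livers, and the diet and control DEN comparisons share the control livers.

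DEN tumours and spontaneous tumours of ALIOS fed mice gave 0 of 10 calls, as 0% of 14845 genes passed in edgeR (1079 genes and none of the 10 had an unadjusted p under 0.05, and DESeq2 called 75 genes and none of the 10). Apoa5 had the widest difference (-0.48 ± 0.35, adjusted p = 0.934), and the other 9 lay between -0.05 and 0.21. Diet within DEN tumours also gave 0 of 10 calls, with 0.0134% of 14944 genes called (2 genes; 1273 had an unadjusted p under 0.05, none of them among the 10, and DESeq2 called 0 of the 10). Apoa4 differed there by -0.07 ± 0.47 and Apoc2 by -0.02 ± 0.51. Apoa2 (0.51 ± 0.32) and Apoa1 (-0.38 ± 0.27) differed more, both short of the test. The SE for Apoa4 was larger than the 0.16 of the livers.

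Whether diet acted unlike in DEN tumours and livers was tested directly. The diet effect on Apoa4 was lower in DEN tumours by 1.27 ± 0.42 on the log2 scale, adjusted p = 0.0937 in edgeR and 0.0493 in DESeq2, so the call depended on the tool. For Apoc2 the difference was -0.65 ± 0.43 (adjusted p = 0.475). In edgeR 0 of 10 genes were called (1 had an unadjusted p under 0.05) and 2.27% of 15606 genes were. The remaining 8 genes lay between -0.58 (Apoa5) and 0.36 (Apoa2).

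Ratios within a library do not depend on scaling. The log2 ratio of Apoa4 to Apoa1 counts was -3.18 ± 0.44 (SD) in control livers, -1.97 ± 0.49 in ALIOS livers, -1.10 ± 0.47 in ALIOS tumours, -1.30 ± 0.21 in control DEN tumours and -1.25 ± 0.64 in ALIOS DEN tumours. It was higher by 1.21 in ALIOS than in control livers (2-sided permutation test over 23 livers, p = 2e-05, the smallest that 100000 resamples can give; adjusted over 12 tests 0.00024). It was higher by 0.87 in spontaneous tumours than in ALIOS livers (permutation p = 0.00054, adjusted 0.00216), by 1.88 in control DEN tumours than in control livers (exact permutation p = 0.000323, adjusted 0.00194) and by 0.72 in ALIOS DEN tumours than in ALIOS livers (exact permutation p = 0.0141, adjusted 0.0422). Taken as medians, the last difference was 0.51 (adjusted p = 0.0924). Between tumour groups it differed by -0.15 and 0.04 (exact permutation, adjusted p = 0.831 and 0.986).

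The ratio of Mttp to Apob gave no call in any of the 6 comparisons (adjusted p from 0.365 to 0.986), with differences between -0.20 and 0.16 and group means from -4.30 to -4.10. The ratio differed between groups by less than its SDs of 0.23 to 0.42 within them. Within groups its spread went from somewhat below that of Mttp to above it. In ALIOS livers its SD was 0.28, against 0.21 for Mttp and 0.13 for Apob in log2 CPM. In ALIOS tumours its SD was 0.35, against 0.38 for Mttp and 0.54 for Apob in log2 CPM. In ALIOS DEN tumours these were 0.42, 0.49 and 0.88.

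**Figure D4:**
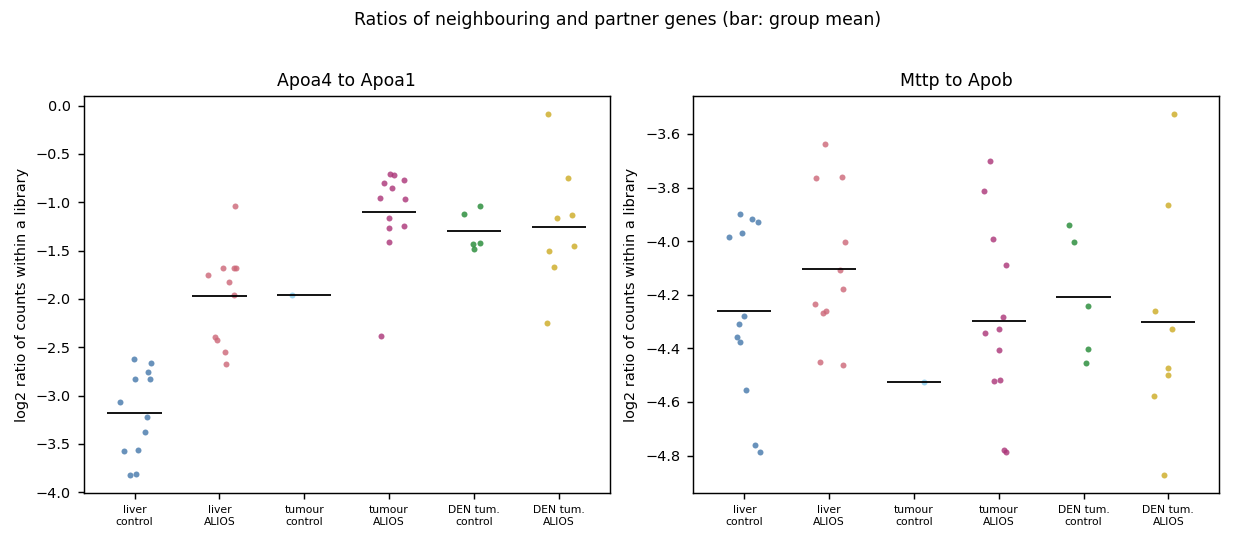
Log2 ratio of counts of Apoa4 to Apoa1 and of Mttp to Apob in each library (points) with group means (bars). The mean of the first ratio goes from -3.18 in control livers to -1.10 in ALIOS tumours. The mean of the second stays between -4.30 and -4.10 in the groups of several libraries.

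The single spontaneous tumour of a control mouse, T7, allowed no test. It held 5593 CPM of Apoa4, 2819 of Apoc2, 21818 of Apoa1 and 8891 of Apob, each above every control liver, and 4821 of Apoa2 and 572 of Apoa5, each below every one. Apoe (9937), Apoc1 (3044), Apoc3 (2267) and Mttp (386) were within the range of control livers. All of these values lay within the range of the ALIOS tumours.

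Partners of the 10 genes were read from 7 lists. With diet in livers, where 11.2% of all genes passed, among 12 other apolipoproteins tested 0 rose and 1 fell, Apom, an HDL protein that carries sphingosine 1-phosphate (-0.69 ± 0.17, adjusted p = 0.014; list median -0.01). Of 22 partners of VLDL assembly and secretion 1 fell, the sorting receptor Sort1 (-0.76 ± 0.14, adjusted p = 0.00208; median 0.00). Of 12 receptors and their regulators 2 rose, Vldlr, the VLDL receptor (2.24 ± 0.38, adjusted p = 0.00141), and Lrpap1 (0.35 ± 0.11), and 2 fell, Lrp2 (-1.23 ± 0.29) and Stab1 (-0.25 ± 0.08). Vldlr and Lrp2 were low, with mean log2 CPM of 1.13 and -0.25 in ALIOS livers and -0.96 and 0.93 in control livers. Of 11 genes of HDL formation Bmp1 fell (-0.30 ± 0.07). Neither edgeR nor DESeq2 called any of the 4 Apob editing, 8 lipoprotein lipase or 24 transcriptional regulator genes, of which 1, 1 and 3 had an unadjusted p under 0.05.

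In spontaneous tumours against ALIOS livers 10 of 12 other apolipoproteins fell and 1 rose (median -1.09, against 0.01 over all genes, of which 52.8% were called). The 10 of 22 assembly partners and 12 of 24 transcriptional regulators called below lay near that share. Saa2 (-2.84 ± 0.61) and Saa1 (-2.80 ± 0.52), acute phase apolipoproteins, fell most, and Apom rose (1.20 ± 0.30). Of the 22 assembly partners 3 rose, among them Sort1 (1.0 ± 0.21) and the lipid droplet protein Plin2 (0.98 ± 0.16), and 7 fell, among them the carboxylesterases Ces3a (-2.58 ± 0.72) and Ces1d (-1.56 ± 0.35). Of 8 lipoprotein lipase genes 3 rose, with Lpl itself at 2.06 ± 0.32 and Angptl8 at 1.43 ± 0.24, and 3 fell, with Gpld1 at -1.59 ± 0.19. HDL formation had 2 higher (Abca1, 0.49 ± 0.15; Scarb1, 0.44 ± 0.14) and 5 lower, led by Pon1 (-2.68 ± 0.61) and the hepatic lipase gene Lipc (-2.15 ± 0.44).

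Receptors and their regulators had 4 higher, led by Vldlr (1.14 ± 0.38), and 2 lower, Lrp1 (-0.49 ± 0.11) and Mylip (-0.43 ± 0.17). Among 24 transcriptional regulators 4 rose, led by Nr1d1 (0.85 ± 0.24) and Rora (0.70 ± 0.20), and 8 fell, led by Nr1h4 (-0.71 ± 0.15) and Cebpa (-0.55 ± 0.14). Of the 4 Apob editing genes Rbm47 fell (-0.38 ± 0.09). In the DEN tumours the other apolipoproteins had 9 of 12 lower on either diet, with medians of -0.75 on ALIOS and -1.45 on control, and the assembly partners had 3 higher with 7 and 5 lower, where 47.5% and 51.7% of all genes were called.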

How the data were processed

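RNA-seq was of stranded mRNA libraries. Per the labels and the study's methods, the authors aligned reads with STAR (mm10) and deposited raw counts per gene from HTSeq (Gencode M6 exons), not normalized. Versions and the strand option are not given in the sources used here. Groups came from the labels, which mark no batch. Each of the 10 genes had at least 4860 counts in each of the 49 libraries used. Differences were tested with edgeR 4.0.16 in R 4.3.3 (filterByExpr, TMM, glmQLFit and glmQLFTest, no covariates, 7 comparisons), with only the groups compared in a fit. DESeq2 1.42.0, its size factors, no filter, all 6 groups in 1 fit, both diets with diet as a covariate (spontaneous tumours) and left-out libraries were alternatives. The functions were tested on simulated data. Log2 CPM used a prior count of 2, and ratios a pseudocount of 1. Permutation tests used scipy 1.17.1 under Python 3.11.15. Coordinates are from Gencode M21 (GRCm38). P-values measure the spread between these libraries. Over 225 pairs of libraries of 1 group, the lowest chi-square per degree of freedom was 11.9, so none was counted as a duplicate. All 10 genes are named in every comparison. From each other list up to 2 higher and 2 lower called genes with the largest change are named, for diet in liver and spontaneous tumours only. Some genes that meet this rule are not reported here. The genes, lists and rules were chosen with earlier results of these data known.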

Additional observations from a re-analysis of the deposited data

Results flagged for a closer look

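Each of the 10 genes was screened in the groups of 4 to 10 libraries, the control and the ALIOS DEN tumours. Among these 20 sets of values 1 library lay far from the rest. Apoc3 in the ALIOS DEN tumour T24 had a log2 CPM of 9.61, against 10.80 to 11.38 in the other 7. Chance flags about 1 set in 20, and the sets share the same tumours. Livers and spontaneous tumours were not screened. The control diet tumour T7 entered none of the main comparisons, only some alternative fits. It held Apoa1 at 21818 CPM (control livers at most 16064), Apob at 8891 (at most 7643), Apoa4 at 5593 (at most 1957) and Apoc2 at 2819 (at most 1199).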

How the results depend on the processing

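No paired analysis was possible because the labels tie no tumour to a liver of the same mouse. With all 6 groups in 1 fit, diet in liver called 1 of the 10 genes in place of 2. With T1 included, spontaneous tumours called 1 gene in place of 7. In DESeq2 the difference between diet effects called 1 gene, Apoa4, in place of 0. The Apoa4 to Apoa1 difference of ALIOS DEN tumours was 0.51 as medians, not past the threshold. The cause of these changes was not tested, except that T1 holds kidney transcripts. Leaving out any 1 library of both groups gave 2 calls throughout for diet in liver, 7 throughout for spontaneous tumours and 0 for diet in DEN tumours. Only DEN tumours were left out in the others, with 5 to 7 calls for the 8 ALIOS DEN tumours against livers (6 with all), 5 to 6 for the 5 control DEN tumours (6 with all), 0 for DEN against spontaneous tumours (8 left out in turn) and 0 for the difference between diet effects (the 5 control DEN tumours and T24). Of the single-gene values under all alternatives 1143 kept the call or the lack of one, 16 lost the call and 11 gained one. Among ratio values 23 of 24 kept theirs. Some values that were never called changed direction, such as Apoa1 with diet in liver (0.02, and -0.02 to 0.07 with 1 library left out).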
